A study of Homo sapiens with 24 samples.

Results

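The comparison asked whether cell fusion changed the same transcripts in HCC1806 and in MDA-MB-231, both established human lines of triple-negative breast cancer. For each gene, the change from control to fusion in HCC1806 was subtracted from the same change in MDA-MB-231, and the result is called the line difference. It was tested in every gene with enough reads in both lines, which were 10369 of the 29744 genes in the table (11467 passed in HCC1806 and 11424 in MDA-MB-231). The libraries compared were 12 of the 24 in the series, in 4 groups of 3: the parental aneuploid control and the fusion-derived whole-genome-doubled (WGD) population of each line. Fused cells had been isolated by FACS and expanded, and all groups grew for 48 hours in 6-well plates before polyadenylated RNA was read by TAGseq, a method that sequences the 3′ ends of transcripts. Each fusion group came from 1 derived population, so its replicates do not measure the variation between separate fusion events.

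Cell fusion joins the nuclei and cytoplasm of a pair of cells, and daughters of the fused cell can go on dividing with a doubled genome. Doubled cells carry extra centrosomes and tend to missegregate chromosomes, which gives uneven sets of chromosomes among their descendants. HCC1806 is a basal epithelial line, and MDA-MB-231 is a mesenchymal line with active RAS and RAF signalling, so that the starting transcriptomes of the lines differ widely.

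Totals of estimated counts ran from 3060622 to 3811159 per library, with 14464 to 15123 genes detected. CPM are estimated counts scaled to each library's total over the tested genes, multiplied by its TMM factor from edgeR. On that scale, 1 count was worth 0.264 to 0.352 CPM. Line labels fitted the markers. The mesenchymal filament gene VIM had at most 7 counts in HCC1806 and 8799 to 10035 in MDA-MB-231, and the basal keratin KRT5 had at most 1 count in MDA-MB-231 and 1274 to 1522 in HCC1806. No fibroblast or endothelial marker had enough reads to be tested. Summed fibroblast markers stood at 28.9 ± 6.2 CPM in HCC1806 controls and 12 ± 3.08 CPM in the fused cells. Summed endothelial markers stood at 3.04 ± 0.544 CPM in MDA-MB-231 controls and 6.41 ± 1.56 CPM in the fused cells, with 3 of the 6 markers at 0 in both groups. The part of these markers in the results was not tested. Summed immune markers, nearly all from the lysosomal protein CD68, stood at 73.8 ± 4.43 CPM (SD, n = 3) in MDA-MB-231 controls and 100 ± 9.82 CPM in the fused cells, with 5 of the 10 markers at 0 in both groups. In bulk RNA, a change in the share of cells and a change in the RNA per cell cannot be told apart.

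Across genes, the fusion effects of the lines had a Pearson's r of -0.0472. Changes are log2 fold changes fitted by edgeR, with a standard error after ±. That error was derived as the absolute change divided by the square root of the F statistic of its quasi-likelihood test. A gene is called where its Benjamini-Hochberg adjusted p over all 10369 genes is below 0.05. The line difference was called in 1541 genes (14.9%), of which 843 (8.13%) were higher in MDA-MB-231 and 698 (6.73%) lower. In 200 of them it reached 2-fold. Fusion against control called 2054 genes in MDA-MB-231 (19.8%; 1111 or 10.7% higher and 943 or 9.09% lower) and 864 in HCC1806 (8.33%; 400 or 3.86% higher and 464 or 4.47% lower). The HCC1806 count fell to 563 without fusion replicate 1, to 575 without fusion replicate 2, and to 563 with DESeq2. The r between the changes of the lines was -0.0472 over all genes and -0.029 over the 4561 genes of at least 5 log2 CPM in both lines. Counting error is smaller in the latter genes, and both values still include it. Genes are not independent replicates, so these values are a description.

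Both lines called 285 genes. They were 13.9% of the genes called in MDA-MB-231, beside 8.33% of all genes called in HCC1806. They were 33% of the genes called in HCC1806, beside 19.8% of all genes called in MDA-MB-231. They split almost evenly: 139 changed the same way (79 higher and 60 lower), and 146 changed in opposite directions. Of the opposite ones, 96 rose in MDA-MB-231 and fell in HCC1806, and 50 did the reverse. The line difference was called in all 146 opposite genes and in 20 of the 139 others. Among the remaining genes with a called line difference, 868 were called in MDA-MB-231 alone, 281 in HCC1806 alone and 226 in neither line.

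The direction of the calls depended on how libraries were scaled. On log2(TPM + 1) with no further centring, limma called 384 genes higher and 799 lower, since the median fusion effect of all genes moved to -0.10 in MDA-MB-231 and -0.03 in HCC1806. With each library centred on its median, the same values gave 660 higher and 580 lower. Uncentred TPM also turned list medians in MDA-MB-231 from above to below 0: immediate early genes from 0.11 to -0.01, glycolysis from 0.13 to -0.01, mitosis from 0.07 to -0.05 and interferon-stimulated genes from 0.08 to -0.04. The changes that follow are relative to the median gene of each line, which edgeR's TMM scaling put at 0.

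**Figure D1:**
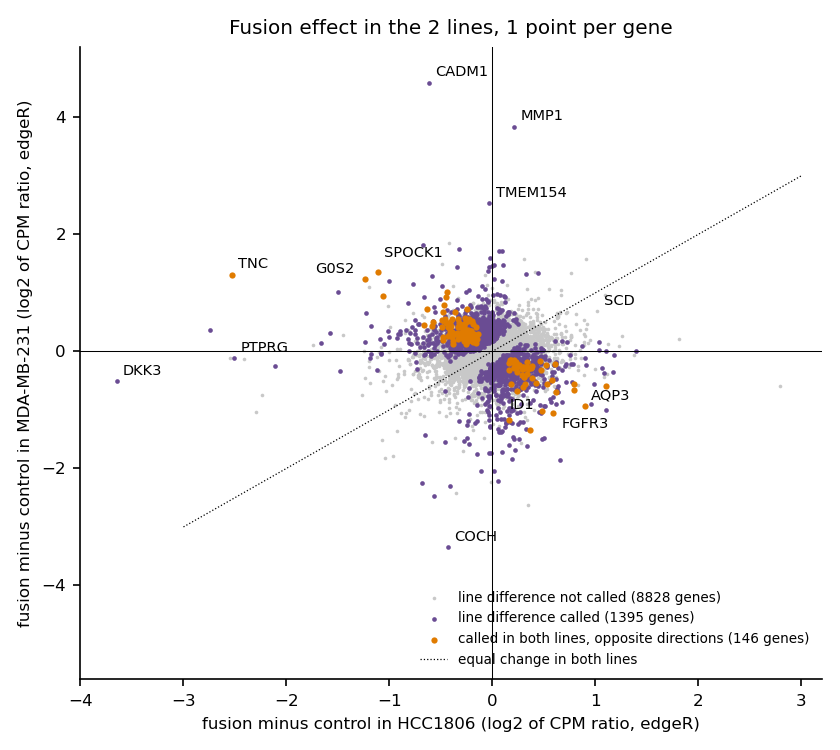
Each point is 1 of the genes tested, with its fusion minus control change in HCC1806 on the x axis and in MDA-MB-231 on the y axis, both on the log2 scale. Purple points have a called line difference and orange points are the 146 genes called in both lines in opposite directions; genes with an equal change would lie on the dotted line, and 5 genes with no call lie beyond the axes.

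TNC, G0S2, SPOCK1 and the laminin genes LAMB3 and LAMA3 rose after fusion in MDA-MB-231 and fell in HCC1806. TNC encodes tenascin-C, a matrix glycoprotein of wounds and tumour stroma (chromosome 9, 115019575 to 115118157, GRCh38). Its level in MDA-MB-231 was 7.03, 5.49 and 3.97 CPM in the controls and 10.9, 16.9 and 12.8 CPM in the fused cells. In HCC1806 it was 7.50, 5.98 and 8.47 CPM in the controls and 1.25, 1.23 and 1.28 CPM in the fused cells. The control groups of the lines overlapped, while the fused groups stood apart on either side of them. The change was 1.31 ± 0.23 in MDA-MB-231 and -2.53 ± 0.37 in HCC1806, which gave a line difference of 3.84 ± 0.43 (adjusted p = 1.74e-10). The fused HCC1806 libraries held 12 TNC counts in all against 74 in the controls, and the exact 95% interval of that log2 ratio, for counting error only, ran from -3.58 to -1.68.

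The proteoglycan SPOCK1 rose by 1.36 ± 0.36 in MDA-MB-231, from a total of 20 counts in the controls, and changed by -1.11 ± 0.11 in HCC1806.

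G0S2, an inhibitor of the lipase ATGL, and LAMB3, the beta chain of laminin-332, lie beside each other on chromosome 1q, with 22987 bases between their starts. G0S2 rose from 109, 110 and 117 CPM to 270, 249 and 267 CPM in MDA-MB-231 and fell from 25.1, 29.2 and 24 CPM to 12.8, 9.53 and 10.6 CPM in HCC1806 (line difference 2.46 ± 0.17, adjusted p = 1.73e-19). LAMB3 rose from 93.6, 91.5 and 94.9 CPM to 131, 137 and 137 CPM in MDA-MB-231 and fell from 337, 375 and 326 CPM to 247, 239 and 249 CPM in HCC1806 (line difference 1.02 ± 0.09). Both neighbours thus moved apart between the lines, although LAMB3 began higher in HCC1806 and G0S2 in MDA-MB-231. LAMA3, the alpha chain of the same laminin, changed by 0.68 ± 0.17 in MDA-MB-231 and -0.48 ± 0.09 in HCC1806. CCDC71L (1.37 ± 0.20) and the acyltransferase gene AGPAT9 (1.08 ± 0.17) moved in the same orientation.

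The 250 bases before the start of TNC and of the 3 genes just compared are shown because these genes moved together in both lines. They are RefSeq sequences on GRCh38.p14, read 5′ to 3′ on the strand of the gene, and capitals mark matches to the AP-1 motif TGANTCA, which reads the same on both strands. TNC lies at chr9:115118158-115118407 (minus strand), G0S2 at chr1:209675162-209675411 (plus), LAMB3 at chr1:209652426-209652675 (minus) and LAMA3 at chr18:23872770-23873019 (plus). The LAMA3 stretch lies inside the gene, which spans 23689453 to 23955066 on chromosome 18, before an internal start used in the RefSeq promoter table.
TNC: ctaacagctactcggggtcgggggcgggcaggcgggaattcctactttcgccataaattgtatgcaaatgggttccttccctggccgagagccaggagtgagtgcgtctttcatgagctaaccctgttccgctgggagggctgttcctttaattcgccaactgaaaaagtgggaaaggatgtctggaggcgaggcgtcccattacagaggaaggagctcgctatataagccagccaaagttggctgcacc
G0S2: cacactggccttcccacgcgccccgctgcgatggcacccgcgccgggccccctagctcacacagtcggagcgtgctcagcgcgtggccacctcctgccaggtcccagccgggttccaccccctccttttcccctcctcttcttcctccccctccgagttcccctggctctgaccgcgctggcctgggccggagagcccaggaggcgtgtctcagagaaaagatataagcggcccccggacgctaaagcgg
LAMB3: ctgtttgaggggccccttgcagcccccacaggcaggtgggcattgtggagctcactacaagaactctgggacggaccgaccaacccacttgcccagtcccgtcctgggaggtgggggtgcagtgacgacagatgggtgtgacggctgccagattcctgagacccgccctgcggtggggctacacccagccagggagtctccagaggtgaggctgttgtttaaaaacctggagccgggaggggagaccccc
LAMA3: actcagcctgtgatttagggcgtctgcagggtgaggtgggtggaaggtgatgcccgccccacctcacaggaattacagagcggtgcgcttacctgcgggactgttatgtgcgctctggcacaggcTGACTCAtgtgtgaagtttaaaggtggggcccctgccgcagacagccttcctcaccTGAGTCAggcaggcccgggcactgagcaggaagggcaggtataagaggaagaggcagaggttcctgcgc
LAMA3 held 2 matches, both before that internal start, and the other three none. Of the 16 genes that the naming rule gave for changes in opposite directions, 11 matched a RefSeq promoter, and LAMA3 was the only one of these 11 with a match. Among all 27305 RefSeq promoters of this length, 6.6% held the motif, and 3.49% of the 8419 promoters of tested genes did. The TEAD motif GGAATG, searched on both strands, was in 2 of the 11 promoters, in 11.9% of all promoters and in 9.12% of those of tested genes.

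AQP3, SCNN1A, FGFR3 and HSPG2 moved the other way, falling in MDA-MB-231 and rising in HCC1806. AQP3, an aquaporin that carries water and glycerol in epithelia (chromosome 9, 33441160 to 33447593), went from 19.4, 17.7 and 16.7 CPM to 9.27, 8.62 and 10.3 CPM in MDA-MB-231. In HCC1806 it went from 38.9, 37.6 and 34.7 CPM to 67.6, 74.7 and 65.7 CPM. The groups of neither line overlapped, and the line difference was -1.83 ± 0.20 (adjusted p = 6.78e-11). FGFR3, a fibroblast growth factor receptor, went from 5.06, 4.27 and 4.23 CPM to 1.92, 2.38 and 2.13 CPM in MDA-MB-231 and from 16.7, 15.5 and 16.9 CPM to 29.3, 20.9 and 24.1 CPM in HCC1806. Its line difference was -1.65 ± 0.38. The epithelial sodium channel subunit SCNN1A (-1.69 ± 0.35) and the basement membrane proteoglycan perlecan (HSPG2, -1.44 ± 0.24) had line differences of like size. The other 4 named genes of this orientation were the RhoGAP gene HMHA1 (-1.32 ± 0.24), GNB1L (-1.35 ± 0.24), the integrin ligand EDIL3 (-1.08 ± 0.20) and RP11-160O5.1 (-1.07 ± 0.25).

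The 12 largest negative line differences and 5 of the 12 largest positive ones came from genes called in MDA-MB-231 alone. MMP1, the interstitial collagenase (chromosome 11, 102789919 to 102798160), stood at 1.12, 1.52 and 1.32 CPM in MDA-MB-231 controls and at 20.8, 19.3 and 17.9 CPM in the fused cells. HCC1806 held far more of it, at 224, 267 and 259 CPM in the controls and 283, 292 and 288 CPM in the fused cells. The rise was called in both lines, by 3.84 ± 0.31 and 0.21 ± 0.07, and the line difference was 3.63 ± 0.32 (adjusted p = 4.25e-12). The MDA-MB-231 controls held 14 MMP1 counts in all. TMEM154 (2.55 ± 0.36, from 3.09, 1.83 and 1.59 CPM to 11.8, 13.1 and 13.1 CPM in MDA-MB-231) and RGCC (2.20 ± 0.43) rose in MDA-MB-231 as well and were not called in HCC1806. So did SLFN5 (1.92 ± 0.37), PRKCQ-AS1 (2.49 ± 0.61) and the small nucleolar RNA SNORA12 (2.07 ± 0.49). The receptor phosphatase PTPRG (2.40 ± 0.47) and CNNM2 (2.53 ± 0.65) had a fall called in HCC1806, where the fused libraries held 8 and 14 counts in all. In MDA-MB-231 PTPRG changed by -0.11 ± 0.08 and CNNM2 by 1.02 ± 0.45, and neither was called.

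COCH, which encodes the matrix protein cochlin (chromosome 14, 30874559 to 30895615), stood at 8.15, 7.62 and 4.23 CPM in MDA-MB-231 controls and at 0.639, 0.594 and 0.608 CPM in the fused cells. It stood at 21.9, 20 and 18 CPM in HCC1806 controls and at 18.1, 14.1 and 12.2 CPM in the fused cells. The change of -3.35 ± 0.44 was called in MDA-MB-231, where the fused libraries held 6 counts in all (exact 95% interval of the log2 ratio from -4.92 to -2.23), and the line difference was -2.92 ± 0.50. The microfibril glycoprotein MFAP2 had 8.72, 7.93 and 10.1 CPM in MDA-MB-231 controls and 1.92, 2.67 and 1.82 CPM in the fused cells, while its HCC1806 libraries of both groups ran from 39.4 to 46.7 CPM. Its line difference was -2.06 ± 0.31. DBNDD1 (-2.50 ± 0.55), the semaphorin SEMA6B (-2.11 ± 0.42), CTXN1 (-2.03 ± 0.61), PITPNM3 (-1.98 ± 0.30), C9orf169 (-1.98 ± 0.46), TMEM139 (-1.95 ± 0.48), the retinaldehyde reductase DHRS3 (-1.92 ± 0.45), the adaptor DOK4 (-1.90 ± 0.63), MOB3B (-1.89 ± 0.56) and DTX3 (-1.86 ± 0.47) completed the 12 largest negative differences. All 10 fell in MDA-MB-231 and none was called in HCC1806. For DBNDD1, CTXN1, C9orf169, TMEM139, DHRS3, DOK4 and MOB3B the fused MDA-MB-231 libraries held from 7 to 19 counts in all. The exact 95% interval of the log2 ratio ran from -2.91 to -0.69 for DHRS3. For SEMA6B and DTX3 the uncalled changes in HCC1806 (1.10 ± 0.38 and 0.96 ± 0.42) were as large as the falls in MDA-MB-231 (-1.01 ± 0.17 and -0.90 ± 0.21). DOK4 and MOB3B instead had uncalled changes below 0 in HCC1806 (-0.57 ± 0.41 and -0.41 ± 0.21). The line differences of CTXN1, DOK4 and MOB3B lost their calls without single libraries: CTXN1 without HCC1806 fusion replicate 2 (adjusted p = 0.116) or MDA-MB-231 fusion replicate 1, DOK4 in 5 of 12 cases, and MOB3B without MDA-MB-231 control replicate 2 or fusion replicate 2. PTPRG, at 0.23 on the log2(TPM + 1) scale, was not called there. CADM1 and DKK3 fell below the level set for naming and are given after their values were seen. The adhesion molecule CADM1 held 3 counts in all MDA-MB-231 controls and 75 in the fused cells (log2 ratio 4.76, exact 95% interval from 3.16 to 7.07). The Dickkopf-family gene DKK3 held 83 counts in HCC1806 controls and 6 in the fused cells.

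**Figure D2:**
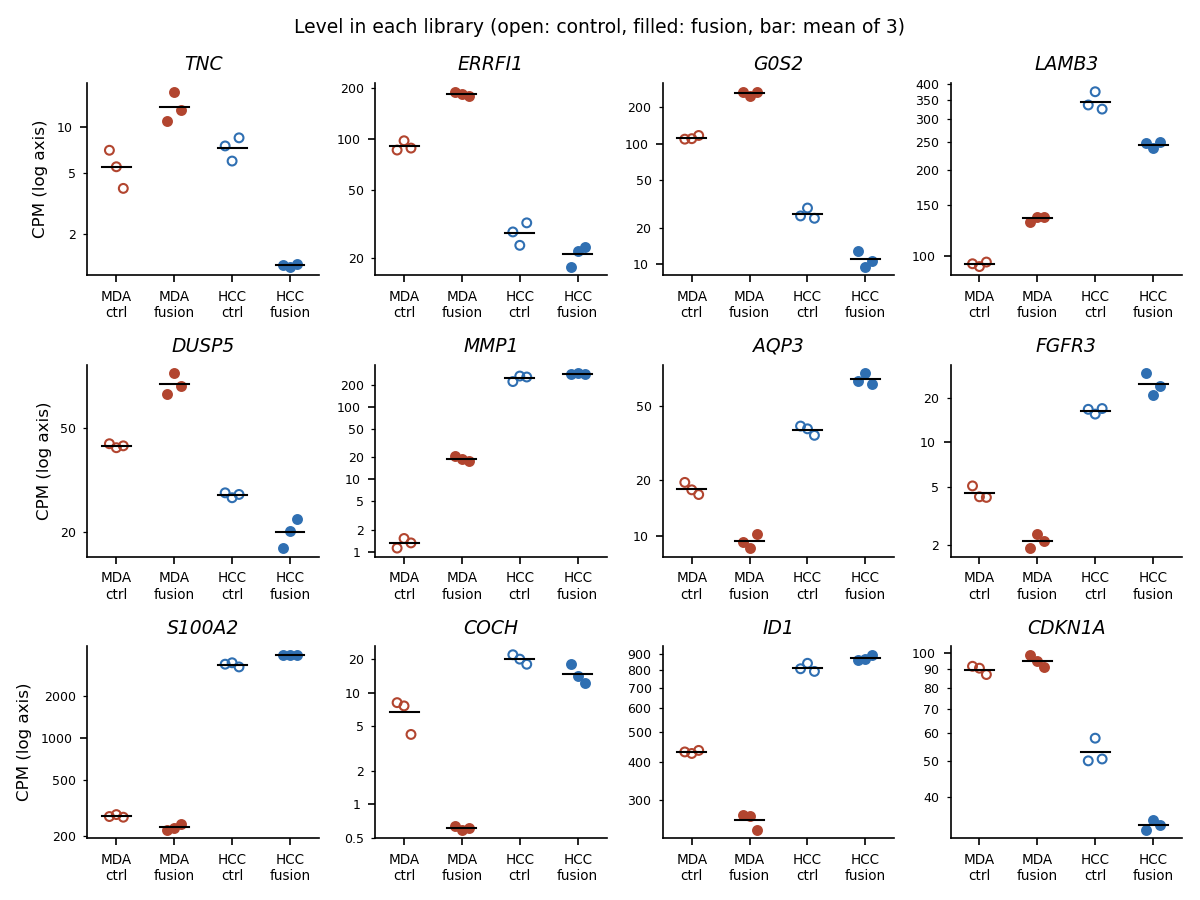
Points give the level of 12 genes in each library, in CPM on a log axis, with open circles for control, filled circles for fusion and a bar at the mean of 3. TNC, ERRFI1, G0S2, LAMB3 and DUSP5 rise in MDA-MB-231 and fall in HCC1806, AQP3, FGFR3 and S100A2 do the reverse, MMP1, COCH and ID1 move mainly in MDA-MB-231, and CDKN1A falls in HCC1806.

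Among the genes named for changing the same way in both lines, the stearoyl-CoA desaturase SCD went from 127, 113 and 132 CPM to 183, 191 and 225 CPM in MDA-MB-231 and from 52.2, 50.7 and 49.2 CPM to 116, 94.4 and 97.5 CPM in HCC1806. These rises of 0.69 ± 0.08 and 1.02 ± 0.11 gave no called line difference (-0.33 ± 0.14, adjusted p = 0.101), although fits of each line apart and of 12 libraries called it (adjusted p = 0.0381 and 0.0407). The sugar phosphate exchanger SLC37A2 rose by 0.67 ± 0.07 and 0.66 ± 0.11. OLFML2A, DIAPH2, HCFC1R1, DYNLT3 and RAP1GAP2 also rose in both lines with no called line difference, while TCEAL8 rose in both and more so in MDA-MB-231 (line difference 0.89 ± 0.20). The xenobiotic-metabolising cytochrome CYP1B1 fell from 417, 438 and 422 CPM to 287, 289 and 236 CPM in MDA-MB-231 and from 228, 256 and 219 CPM to 133, 138 and 134 CPM in HCC1806 (line difference 0.14 ± 0.09). Fibronectin (FN1), fibrillin (FBN1), the TGF-beta co-receptor TGFBR3, the adhesion molecule ICAM1, FAM171B, TRNP1 and RBPMS2 fell in both lines. Of these, RBPMS2 alone had a called line difference (-1.57 ± 0.48, adjusted p = 0.017), and the call was lost without each of 3 MDA-MB-231 libraries (adjusted p from 0.076 to 0.0847). With 3 libraries a group, a line difference that was not called does not show equal effects: 901 genes called in MDA-MB-231 alone and 298 called in HCC1806 alone had none.

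Immediate early and ERK feedback genes had more higher than lower called line differences. These genes switch on within minutes of growth factor signalling, or encode phosphatases and Sprouty proteins that dampen it. Of 34 tested members, 15 had a higher and 3 a lower line difference (52.9%, beside 14.9% of all genes). Their median change was 0.11 in MDA-MB-231 and -0.23 in HCC1806, with 9 rising and 3 falling in the former and 1 rising and 9 falling in the latter. On log2(TPM + 1) without centring, 2 rose and 4 fell in MDA-MB-231, 1 rose and 7 fell in HCC1806, and the line difference was higher in 9 and lower in 3. The zinc finger factor EGR1 went from 2.53, 3.35 and 4.50 CPM to 7.35, 4.16 and 5.17 CPM in MDA-MB-231, which was not called, and from 14.7, 11.6 and 8.47 CPM to 2.49, 6.15 and 6.09 CPM in HCC1806, a called fall (line difference 1.89 ± 0.45). The ERK phosphatase DUSP5 went from 43.6, 42.1 and 42.8 CPM to 67.7, 81.1 and 72.7 CPM in MDA-MB-231 and from 28.3, 27.1 and 27.9 CPM to 17.4, 20.3 and 22.5 CPM in HCC1806. Both changes were called, and the line difference was 1.26 ± 0.16 (adjusted p = 8.68e-09). The AP-1 subunits FOSL1 (0.58 ± 0.10), FOSL2 (0.58 ± 0.12) and JUN (0.49 ± 0.12), the feedback gene SPRED2 (0.81 ± 0.21) and MYC (0.52 ± 0.11) differed in the same direction. SPRY4 (1.23 ± 0.35) and KLF4 (0.90 ± 0.29) had called line differences with no call in either line, and these were lost without HCC1806 fusion replicate 1 (adjusted p = 0.0751 and 0.118), among other libraries. Growth factor genes did not move as 1 group: epiregulin (EREG) fell in both lines, from 51.2, 48.2 and 54 CPM to 19.5, 18.7 and 18.9 CPM in MDA-MB-231 and by 0.65 ± 0.08 in HCC1806 (line difference -0.78 ± 0.15), while amphiregulin (AREG, 0.46 ± 0.10) and TGFA (0.38 ± 0.13) fell in HCC1806 alone. EPHA2 and PHLDA2 were the other 2 members with a lower line difference. The calls of TGFA and PHLDA2 were lost without single libraries (adjusted p up to 0.168 and 0.171). ERRFI1, a feedback inhibitor of the EGF receptor counted in the EGFR family list, rose from 85.8, 97.3 and 88.1 CPM to 189, 183 and 178 CPM in MDA-MB-231 and fell by 0.44 ± 0.14 in HCC1806 (line difference 1.46 ± 0.15).

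**Figure D3:**
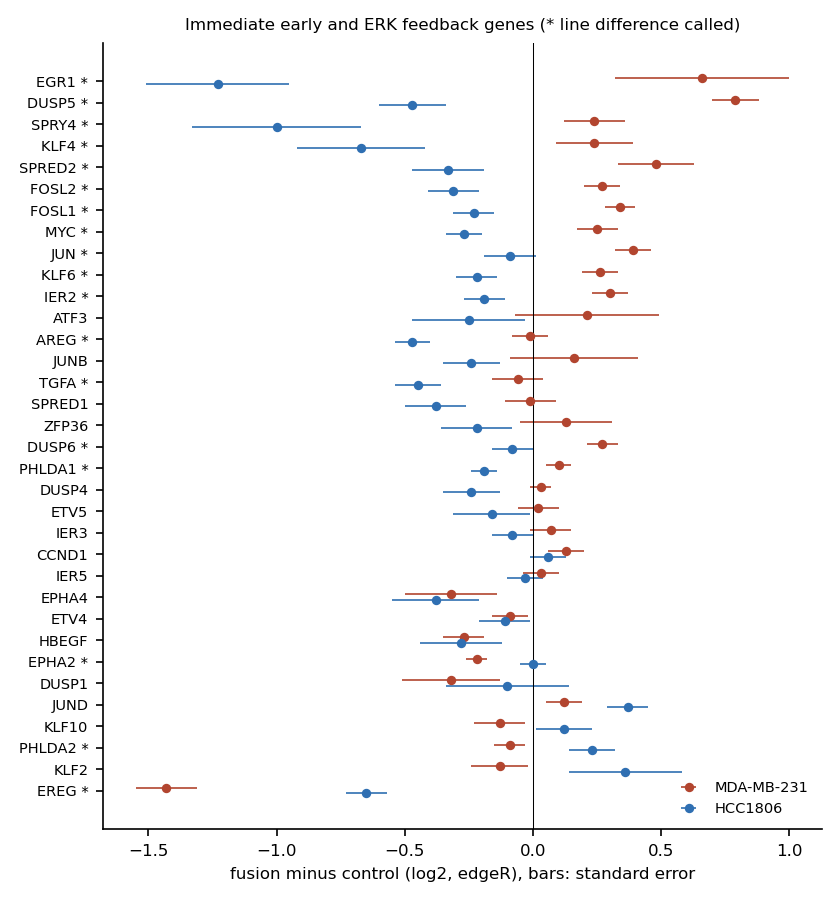
Each row is 1 tested immediate early or ERK feedback gene, ordered by its line difference, with the fusion minus control change on the log2 scale and its standard error in MDA-MB-231 (red) and HCC1806 (blue). The median is 0.11 in MDA-MB-231 and -0.23 in HCC1806, and stars mark called line differences.

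Genes of the TGF-beta and BMP response had more called falls than rises in MDA-MB-231. Of 33 tested members, 3 rose and 15 fell in MDA-MB-231 (median -0.31), and 1 rose and 6 fell in HCC1806 (median -0.03). Of all genes, 9.09% fell in MDA-MB-231 and 4.47% in HCC1806. The line difference was higher in 4 members and lower in 8 (36.4%, beside 14.9% of all genes). ID1 and ID3 encode inhibitors of helix-loop-helix factors and are direct BMP targets. ID1 went from 431, 426 and 436 CPM to 268, 265 and 240 CPM in MDA-MB-231, and from 807, 841 and 791 CPM to 861, 868 and 897 CPM in HCC1806, where it was not called (line difference -0.85 ± 0.06, adjusted p = 1.26e-18). ID3 (-0.99 ± 0.10), the activin antagonist follistatin (FST, -0.89 ± 0.12) and the inhibitory Smad gene SMAD6 (-1.67) fell in MDA-MB-231 with no call in HCC1806. The call of SMAD6 was lost without MDA-MB-231 control replicate 3 (adjusted p = 0.0808).

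Called line differences were higher among matrix protease genes, and more often lower than higher among epithelial genes. Of 21 matrix protease and inhibitor genes, 7 had a higher line difference and none a lower one (33.3%, beside 14.9% of all genes). Among these 7 were MMP1, the protease nexin SERPINE2 (1.06 ± 0.18) and TIMP2 (0.67 ± 0.11). The mesenchymal list was split, with 9 higher and 6 lower of 28 (53.6%). CD44, a hyaluronan receptor, rose by 0.22 ± 0.04 in MDA-MB-231 and fell by 0.21 ± 0.04 in HCC1806. Of 30 epithelial and junction genes, 3 had a higher and 8 a lower line difference (36.7%, median -0.22). Keratin 7 (KRT7) went from 556, 571 and 544 CPM to 370, 374 and 386 CPM in MDA-MB-231 and from 1580, 1630 and 1590 CPM to 1820, 1780 and 1810 CPM in HCC1806, both called (line difference -0.74 ± 0.06). The protease inhibitor SPINT1 (-1.61) and the splicing factor ESRP2 (-1.43) fell in MDA-MB-231 alone, the former losing its call without MDA-MB-231 control replicate 3 (adjusted p = 0.0956) or fusion replicate 2, and AGR2 (-0.84 ± 0.12) rose in HCC1806 alone. The epithelial transcription factor EHF moved against the list, from 33.7, 29.6 and 33.9 CPM to 67.7, 79.9 and 76.6 CPM in MDA-MB-231 (line difference 1.11 ± 0.11). The calcium-binding protein S100A2, abundant in HCC1806, fell by 0.27 ± 0.04 in MDA-MB-231 and rose by 0.23 ± 0.03 in HCC1806 (line difference -0.50 ± 0.05). It belongs to a separate list of basal and squamous genes, which was split. Of its 10 tested members, 2 had a higher line difference (LAMB3 and LAMA3) and 2 a lower one, with a median of 0.18.

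Hypoxia and stress genes had more called rises in MDA-MB-231 than in HCC1806. Of 21 hypoxia targets, 10 rose and none fell in MDA-MB-231 (median 0.26), and 2 rose and none fell in HCC1806 (median -0.02). Of all genes, 10.7% rose in MDA-MB-231 and 3.86% in HCC1806. The line difference was higher in 6 of these targets (28.6%, beside 14.9% of all genes). NDRG1, a stress-responsive growth regulator, went from 96.5, 107 and 110 CPM to 209, 232 and 237 CPM in MDA-MB-231, while its HCC1806 groups overlapped, at 39.6 to 49.3 CPM and 36.9 to 43.6 CPM (line difference 1.22 ± 0.12). The mitophagy receptors BNIP3 (0.96 ± 0.14) and BNIP3L (0.67 ± 0.17) also rose in MDA-MB-231 alone. Of 34 genes of the unfolded protein response and ATF4, 9 had a higher line difference and 1 a lower one (29.4%). In MDA-MB-231 14 of them rose and 3 fell (median 0.17), and in HCC1806 1 rose and 4 fell (median -0.08). On log2(TPM + 1) without centring, 5 rose and 5 fell in MDA-MB-231 (median 0.04), and none rose and 3 fell in HCC1806. The line difference on that scale was higher in 5 and lower in 1. TRIB3, a pseudokinase induced by ATF4, went from 12.7, 11.6 and 15.1 CPM to 29.4, 24.1 and 21.6 CPM in MDA-MB-231 and from 48.2, 45.4 and 34.2 CPM to 33, 30.7 and 29.2 CPM in HCC1806, both called (line difference 1.37 ± 0.20). The cystine transporter SLC7A11 (0.63 ± 0.09) also rose in MDA-MB-231 and fell in HCC1806, and asparagine synthetase (ASNS, 0.86) rose in MDA-MB-231 alone. The drug efflux pump ABCG2 went from 22.2, 28.7 and 22.7 CPM to 11.5, 11 and 8.82 CPM in MDA-MB-231 and was not called in HCC1806 (line difference -1.35 ± 0.23).

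Ribosomal protein and respiratory chain genes had more called rises than falls in each line, and line differences in both directions. Of all genes, 10.7% rose in MDA-MB-231 and 3.86% in HCC1806. Of 80 cytosolic ribosomal protein genes, 50 rose and none fell in MDA-MB-231, 37 rose and 1 fell in HCC1806, and 22 were called the same way in both. On log2(TPM + 1) without centring, these counts were 14 rising and 4 falling in MDA-MB-231 and 17 and 1 in HCC1806, and the list's median stayed above 0 in both lines (0.03 and 0.10). The line difference was higher in 15 and lower in 7 (27.5%; 6 and 12 on that scale). RPS16 went from 1060, 1100 and 1060 CPM to 1410, 1360 and 1180 CPM in MDA-MB-231 and from 1070, 1140 and 1050 CPM to 891, 930 and 943 CPM in HCC1806, the single ribosomal protein gene that was called in opposite directions. Of 78 nuclear genes of oxidative phosphorylation, 18 rose and 3 fell in MDA-MB-231, 25 rose and 1 fell in HCC1806, and 13 of the 20 called line differences were lower in MDA-MB-231, among them COX5B (-0.49 ± 0.08) and UQCRFS1 (-0.46 ± 0.07). On log2(TPM + 1) without centring, 5 of these genes rose and 8 fell in MDA-MB-231, and 10 rose and none fell in HCC1806. The list's median in MDA-MB-231 turned from 0.08 to -0.04.

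In the cell cycle, p53 and interferon lists, 12.2% to 26.9% of tested members had a called line difference, beside 14.9% of all genes. The shares were 24.2% of 33 centriole and centrosome genes, 26.9% of 26 p53 pathway genes and 14.3% of 21 G1 cyclins and CDK inhibitors. Of 64 mitosis and spindle genes, 7 had a higher and 6 a lower line difference (20.3%), and of 63 DNA replication genes 5 and 7 (19%). The anaphase activator CDC20 (-0.47 ± 0.08) rose in HCC1806 alone, and CKAP2 (0.57 ± 0.09) rose in MDA-MB-231 and fell in HCC1806. KIF18A, a mitotic kinesin on which chromosomally unstable cells depend, rose in MDA-MB-231 (0.31 ± 0.10) and was not called in HCC1806 (0.17 ± 0.09), with no called line difference (0.14 ± 0.14, adjusted p = 0.552). Its range over the 12 libraries was 45.6 to 71.2 CPM. PLK4, the kinase that starts centriole duplication, went from 16.3, 15.6 and 16.9 CPM to 21.7, 26.2 and 23.4 CPM in MDA-MB-231, and from 23.4, 17.6 and 22.7 CPM to 19, 15.1 and 19.6 CPM in HCC1806, where the groups overlapped (line difference 0.81 ± 0.21, adjusted p = 0.00482). The call of PLK4 was lost when libraries were thinned to equal totals (adjusted p = 0.165). The cell cycle inhibitor CDKN1A stood at 91.7, 90.6 and 87 CPM in MDA-MB-231 controls and 98.7, 94.8 and 91.2 CPM in the fused cells, and fell in HCC1806 from 50.2, 58 and 50.8 CPM to 32.4, 34.4 and 33.4 CPM (line difference 0.74 ± 0.12). Cyclin E1 (CCNE1) fell in both lines, by 0.65 ± 0.15 and 0.50 ± 0.10. CCND1, LATS2, KIFC1 and RB1 had no called line difference. CCND2 and CDKN2A did not have enough reads in both lines. Of 41 interferon-stimulated genes, 2 had a higher and 3 a lower line difference (12.2%, beside 14.9% of all genes), with IFIT1 falling in MDA-MB-231 alone (-0.60 ± 0.16) and IFI35 rising in HCC1806 alone (-1.52 ± 0.37).

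Of genes linked to membrane fusion, 3 of 13 tested had a called line difference (23.1%, beside 14.9% of all genes). Annexin A5 (ANXA5, 0.41 ± 0.07) rose in MDA-MB-231 alone, ephrin-B1 (EFNB1, -1.13 ± 0.28) fell there alone, and the membrane repair gene DYSF (1.28 ± 0.43) rose there from 3.37, 4.27 and 0.264 CPM to 3.83, 4.46 and 7.30 CPM. The groups of DYSF overlapped, and its call was lost without any of 5 of the 12 libraries (adjusted p from 0.0507 to 0.26).

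**Figure D4:**
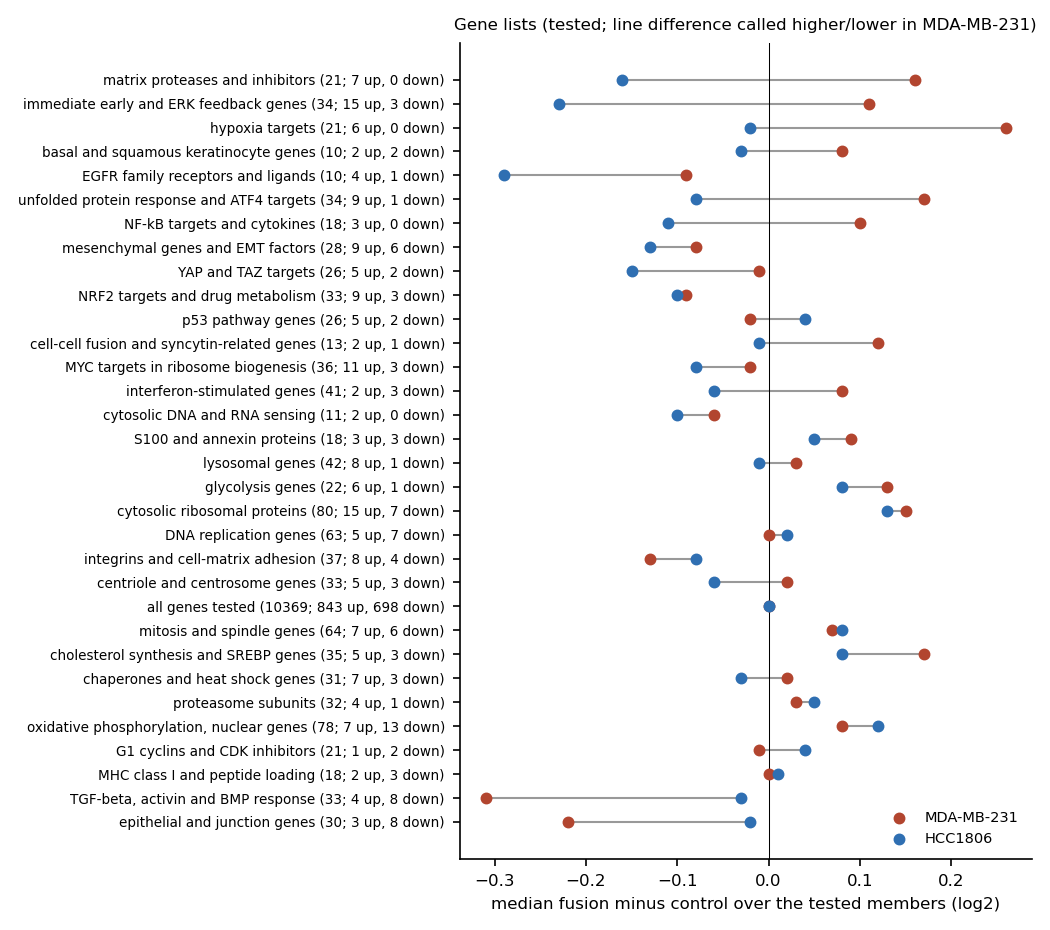
Each row is a gene list with at least 10 tested members, with the median fusion minus control change of its members, on the log2 scale, in MDA-MB-231 (red) and HCC1806 (blue). Labels give the members tested and the number with a higher or lower line difference; matrix proteases, immediate early genes and hypoxia targets have the widest gaps upwards, and epithelial and TGF-beta genes downwards.

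Line differences were unevenly spread over the genome. RefSeq positions on GRCh38 placed 98.2% of the tested genes on 41 chromosome arms, and an arm's value is the median over its genes. On 2p, 115 of 287 genes had a higher line difference and 3 a lower one (41.1%), and the median change was 0.30 in MDA-MB-231 and -0.08 in HCC1806. The 3 fused MDA-MB-231 libraries had 2p medians of 0.282, 0.296 and 0.296 and the controls lay between -0.00449 and 0.00779, so the shift was present in each library. Xq had a median of 0.34 in MDA-MB-231 and 0.05 in HCC1806, with 48 higher and 12 lower line differences among 177 genes. On 18q and 17p the medians in MDA-MB-231 were -0.26 and -0.16 (38 of 106 and 45 of 184 genes fell) beside -0.01 and 0.06 in HCC1806, and 25 of 106 and 29 of 184 genes had a lower line difference. On 5p the shift was in HCC1806, where the median was -0.20 (-0.213, -0.169 and -0.208 in the fused libraries) beside 0.04 in MDA-MB-231, and 18 of 81 genes had a higher line difference and none a lower one. On 20p the medians were below 0 in both lines, at -0.19 in MDA-MB-231 (27 of 94 genes fell and 3 rose) and -0.15 in HCC1806 (18 fell and none rose), and the line differences were 6 higher and 6 lower of 94.

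Windows of 20 Mb with at least 20 tested genes, chosen after the arms were seen, placed the shifts more narrowly. Of 147 windows, 15 had a median line difference of at least 0.3 and 2 of at most -0.3. Chromosome 2 changed sign near its centromere, from a median of 0.30 in MDA-MB-231 between 60 and 80 Mb to -0.12 between 80 and 100 Mb. On chromosome 4 the median line difference was -0.06 between 100 and 120 Mb and 0.32 to 0.44 in the 4 windows from 120 to 200 Mb, where MDA-MB-231 was at 0.22 to 0.27 and HCC1806 at -0.12 to -0.16. On chromosome 13, the window from 40 to 60 Mb had a median of -0.38 in HCC1806 and 0.14 in MDA-MB-231, with 28 of 56 genes called higher in line difference. The first 20 Mb of chromosome 1 stood at 0.13 in MDA-MB-231 and -0.16 in HCC1806, while the next window stood at -0.05 and 0.05. On 18q, the windows from 40 to 60 and from 60 to 80 Mb had medians of -0.26 and -0.43 in MDA-MB-231. Together the 17 windows held 820 genes (7.91% of those tested) and 310 of the 1541 called line differences (20.1%). Inside them 37.8% of genes were called, and outside them 12.9%, a difference that the choice of windows by their own line difference fixes in direction. The correlation of the fusion effects outside them was r = -0.0371. Among genes called in opposite directions, 45 of 146 lay inside.

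Several genes named above lie in these windows, and their position stands beside their list. ENO1, the glycolytic enolase on distal 1p, went from 736, 727 and 760 CPM to 1110, 1070 and 1080 CPM in MDA-MB-231 and from 1210, 1300 and 1230 CPM to 1030, 1100 and 1060 CPM in HCC1806 (line difference 0.79 ± 0.06, adjusted p = 5.61e-19). All 3 tested glycolysis genes in the windows were called, among 7 called of 22, with PGK1 on Xq (0.63 ± 0.07) one of them. Of the 22 called ribosomal protein genes 7 lay in them, including RPL22 (1p, 0.47 ± 0.05), RPS4X (Xq, 0.44 ± 0.05) and RPS27A (2p, 0.40 ± 0.05). PLK4 and SLC7A11 lie in the 4q windows, CKAP2 and RB1 in the 13q window, TMEM154 on distal 4q, and ERRFI1, MFAP2 and DHRS3 in the first 20 Mb of chromosome 1. RGCC lies in the 13q window too, and all 3 called genes linked to membrane fusion (ANXA5, EFNB1 and DYSF) lie in windows. MFAP2, DHRS3 and EFNB1 moved against the median of their window. Of the 18 called immediate early genes 4 lay in the windows, which held 4 tested members of that list. Of the 11 called epithelial genes and the 6 called hypoxia targets none did, but the windows held only 1 tested member of each list. Of the 12 called TGF-beta and BMP genes 1 did, among 5 tested members there. What part the position plays in these results was not tested.

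**Figure D5:**
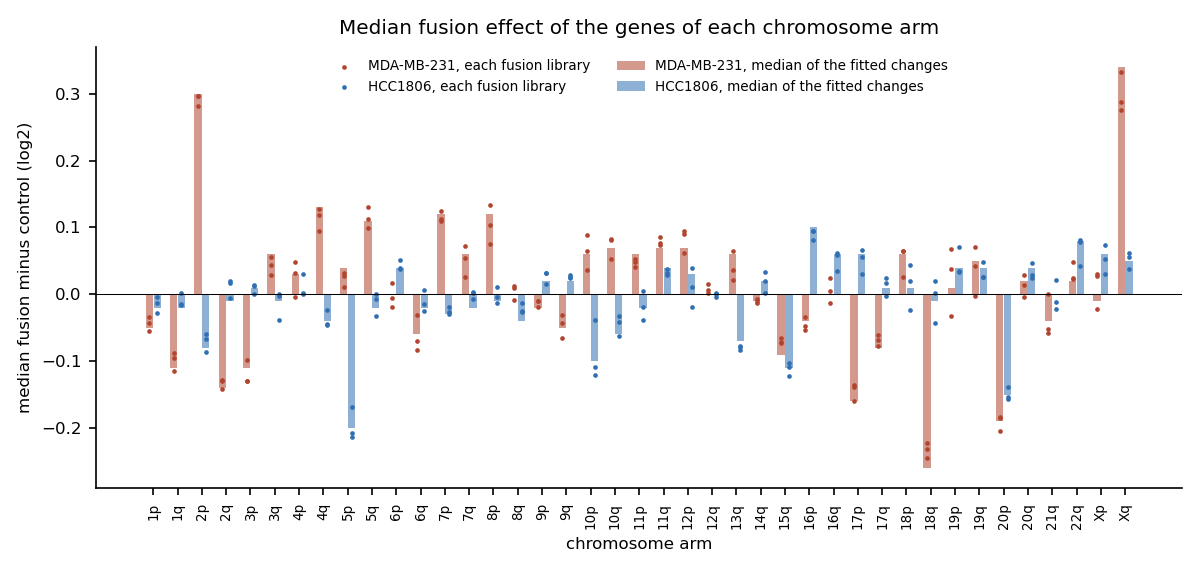
Bars give the median fusion minus control change of the tested genes of each chromosome arm, on the log2 scale, in MDA-MB-231 (red) and HCC1806 (blue), and points give the 3 fusion libraries of each line relative to the control mean. MDA-MB-231 stands apart at 2p and Xq (above 0) and at 17p and 18q (below 0), HCC1806 at 5p, and both lines lie below 0 at 20p.

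Slippage- and cytokinesis failure-derived populations of the same lines gave another reference. With them, fusion was set against the mean of both other doubled populations in each line, a contrast in which the controls cancel. It was called in 2053 genes (19.8%), of which 1107 (10.7%) were higher in MDA-MB-231 and 946 (9.12%) lower. Of the 1541 genes with a line difference against control, 969 were called here too, 955 in the same direction and 14 in the opposite one, and 572 were not called. Both contrasts use the same 6 fusion libraries and so share their error, and these counts are a description. With the shared controls as reference, the line difference of the slippage effect was called in 452 genes (4.36%; 252 or 2.43% higher and 200 or 1.93% lower) and that of the cytokinesis failure effect in 838 (8.08%; 452 or 4.36% higher and 386 or 3.72% lower).

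TNC had a line difference of 3.29 against the other doubled populations (adjusted p = 5.98e-11). The slippage and cytokinesis failure libraries of HCC1806 ran from 6.73 to 14.8 CPM. AQP3 (-2.20), ID1 (-0.83), ID3 (-0.83), FST (-0.93), COCH (-2.83) and ERRFI1 (1.54) were called as well. Those of MMP1 (0.11, adjusted p = 0.762), LAMB3 (-0.01, adjusted p = 0.955) and LAMA3 (0.12, adjusted p = 0.658) were not called. Others not called included TMEM154 (0.27), RGCC (0.87), SNORA12 (0.02), SLFN5 (0.57), CCDC71L (0.29), AGPAT9 (0.25) and DUSP5 (0.33). GNB1L (-0.49), HMHA1 (-0.54) and EDIL3 (-0.28) were not called either. Others called included SPOCK1 (1.6), PTPRG (2.57), MFAP2 (-2.42), SCNN1A (-1.21) and FGFR3 (-0.97). G0S2 was called at 0.53, beside differences against control of 1.38 after slippage, 2.48 after cytokinesis failure and 2.46 after fusion. MMP1 differed between the lines by 3.08 after slippage and 3.97 after cytokinesis failure, beside 3.63 after fusion, and in HCC1806 it stood at 121, 127 and 130 CPM after slippage and 40.5, 55.2 and 60.4 CPM after cytokinesis failure. CDKN1A reversed, with a line difference of -0.88 against the other doubled populations (adjusted p = 1.16e-08), with a difference against control of 1.27 after slippage and 1.97 after cytokinesis failure.

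The immediate early list moved with the reference. Against control, 15 members were higher and 3 lower after fusion, 9 and none after slippage, and 21 and none after cytokinesis failure, with medians of 0.35, 0.32 and 0.66. Against the other doubled populations, fusion had 1 member higher and 13 lower, with DUSP6 (-0.83) and EREG (-1.73) among the latter. In the matrix protease list, 7 members were higher against control after fusion, 10 after slippage and 9 after cytokinesis failure, and none lower. Its medians were 0.36, 0.34 and 0.43. Against the other doubled populations, 2 of its members were higher and 4 lower. In that contrast the hypoxia list had 4 and 2, the unfolded protein response list 12 and 1, the TGF-beta list 4 and 10, and the epithelial list 4 and 8. On 2p, 151 of 287 genes were higher and 3 lower against the other doubled populations, and the median line difference of the window from 20 to 40 Mb was 0.40 after fusion, -0.09 after slippage and -0.05 after cytokinesis failure. The window of chromosome 13 from 40 to 60 Mb likewise stood at 0.49, 0.06 and -0.05. The 4q windows differed from these, with medians of 0.16 to 0.19 after slippage and 0.12 to 0.28 after cytokinesis failure.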

How the data were processed

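Polyadenylated RNA was read by TAGseq, a 3′ tag method, per the labels' protocols. STAR, Salmon and GRCh38 are named in the submitters' processing notes; versions, annotation and strand setting are not given in the sources used here. The authors deposited estimated counts and TPM per gene, per the file headers. Estimated counts (4.41% not whole) were rounded. Genes passing edgeR's expression filter in each line were kept, libraries were scaled by TMM, and a quasi-likelihood model with 8 group means was fitted to all 24 libraries (16 residual degrees of freedom) in edgeR 4.0.16 under R 4.3.3, with Benjamini-Hochberg adjustment over all genes tested. This pools the spread of the slippage and cytokinesis failure libraries, which are otherwise used only as a reference. The p-values measure the spread between replicate libraries of 1 population per group. The deposited TPM were used only in alternatives, as log2(TPM + pseudocount) with limma 3.58.1. DESeq2 1.42.0 was another alternative. The code was tested on simulated data. Depth is given as counts per library, and exact intervals cover counting error only.

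The named genes were the 12 largest positive and 12 largest negative called line differences among genes with a mean of at least 2 log2 CPM in a group of each line and with fused libraries all above or below the controls in at least 1 line. Added to them were up to 8 genes per direction called in both lines, up to 4 per list by smallest p, and a set of cell cycle genes; further list members were chosen after their values were seen. The comparison and the gene lists were chosen with earlier results of these data known. Windows of 20 Mb and 3 alternatives were added after seeing the data. Same-numbered replicates did not deviate together, so they were not paired. Some genes that the rule gives are not reported here. Low-pass genome sequencing was not analysed here.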

Additional observations from a re-analysis of the deposited data

Results flagged for a closer look

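The fusion effect differed between the lines in 1541 genes by the test of the difference itself, edgeR's line difference at an adjusted p below 0.05. The genes named here were chosen for called changes in opposite directions in the same fit. Since the line difference is the subtraction of those changes, its call in each of them was nearly fixed by the choice. The line difference was positive for TNC (3.84), SPOCK1 (2.47), G0S2 (2.46), CCDC71L (1.37), LAMA3 (1.16), AGPAT9 (1.08) and LAMB3 (1.02). It was negative for AQP3 (-1.83), SCNN1A (-1.69), FGFR3 (-1.65), HSPG2 (-1.44), GNB1L (-1.35), HMHA1 (-1.32), EDIL3 (-1.08) and RP11-160O5.1 (-1.07).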

How the results depend on the processing

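The 1541 line differences became 1025 with DESeq2, 1002 after thinning libraries to equal totals and 200 with a 2-fold minimum. Leaving out 1 library at a time gave 1257 to 1454. The 864 calls in HCC1806 became 563 with DESeq2, 552 and 559 on log2(TPM + 1) and log2(TPM + 0.1), 537 after thinning and 37 with a 2-fold minimum, and ran from 563 to 881 with 1 library left out. With a 2-fold minimum, MDA-MB-231 gave 130 calls and fusion against the other doubled populations gave 234. That last contrast has no value in the fit of 12 libraries. With the replicate block the line difference was called in 1456 genes; same-numbered deviations correlated at 0.087, 0.0953 and -0.0636 in HCC1806 and 0.0419, -0.0601 and -0.0572 in MDA-MB-231, so the numbers did not pair the libraries. No called line difference of a named gene reversed under the alternatives run. Changes of sign in named genes with no called line difference were not counted. Thinning ended the calls of CNNM2, PRKCQ-AS1, TMEM139, DOK4, PLK4, DYSF, DUSP6, SPRY4, KLF4, SPRED2, TGFA, PHLDA2 and EPHA2, and log2(TPM + 1) those of PTPRG, MOB3B, RBPMS2, AREG, DYSF, DUSP6, SPRY4 and TGFA. The causes were not tested, except that thinning removes reads. Depth limits genes of few counts.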
